A study of Mus musculus with 12 samples.

Results

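The alternative activation markers described here are 10 mouse genes that macrophages switch on when they meet the cytokines IL-4 or IL-13: Mrc1, Clec10a, Mgl2, Retnla, Chil3, Ccl17, Ccl22, Ccl24, Pdcd1lg2 and Tgm2. They were taken by name as known IL-4 and IL-13 targets, not by a cut on their values. Earlier results of these data were known when they were chosen. They are 10 of the 52636 genes counted. All 10 passed the filter on low counts, which left 16679 genes for testing. Bulk RNA of Cx3cr1+ lung macrophages was sequenced in 12 libraries, 4 to a group. Bleomycin KO is lung given bleomycin, an agent widely used to injure the lung and bring on fibrosis, in animals labelled as lacking Il4ra. Bleomycin WT is lung given bleomycin in animals labelled wild type for Il4ra, and saline WT is lung given saline in animals with that wild-type label. Whether libraries of 1 group came from separate animals is not stated, so the p-values speak of library-to-library spread, part of which may be technical. The Cre driver, the deleted part of the gene, the age and strain, and the bleomycin dose and timing are not stated in the sources read, and saline-treated animals lacking Il4ra were not analysed here.

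IL-4 and IL-13 both signal through the receptor chain encoded by Il4ra, which pairs with the common gamma chain or with the chain encoded by Il13ra1. Janus kinases bound to these chains phosphorylate the transcription factor STAT6, which moves to the nucleus and turns on genes for lectin receptors, chemokines and secreted proteins. In the injured lung these genes are widely used to score alternatively activated macrophages, although several are also made by resting alveolar macrophages, dendritic cells or neutrophils.

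In these libraries the markers did not move together in 1 direction, either where Il4ra was labelled absent or after bleomycin. Of the 10 genes, 4 had a higher and 6 a lower fitted level in bleomycin KO than in bleomycin WT, with a median log2 fold change of -0.23 against -0.01 over all genes tested. Bleomycin WT against saline WT also gave 4 higher and 6 lower (median -0.16, against 0.08 over all genes), and bleomycin KO against saline WT again gave 4 higher and 6 lower (median -0.26, against 0.04). Without saline WT 2 and bleomycin WT 4 (the fit of 10 libraries described below), bleomycin KO against bleomycin WT gave 5 higher and 5 lower (median -0.075, against -0.02 over all genes), bleomycin WT against saline WT gave 3 higher and 7 lower (median -0.24, against -0.14), and bleomycin KO against saline WT gave 3 higher and 7 lower (median -0.46, against -0.15). The comparisons share groups, so their counts are not independent of each other.

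None of the 10 passed an adjusted p of 0.05 in any comparison (edgeR quasi-likelihood test with Benjamini-Hochberg adjustment over all genes tested). With no filter on low counts 1 did, Retnla in bleomycin KO against saline WT (edgeR adjusted p 0.0418). The share of all genes called was 0.0% for bleomycin KO against bleomycin WT, 0.024% for bleomycin WT against saline WT and 0.018% for bleomycin KO against saline WT, so few genes of any kind passed this test. DESeq2 called 0.00253%, 3.31% and 3.14% of genes in the same comparisons and 0 of the 10 markers, and limma-voom with quality weights called 0.0%, 1.91% and 1.39% and again 0 of the 10. At an unadjusted p under 0.05 edgeR marked 0, 0 and 1 of the markers, against 3.88%, 14.7% and 9.03% of all genes. In the fit of 10 libraries, 0 of the 10 markers passed, against 0.0%, 0.431% and 0.643% of all genes, and at an unadjusted p under 0.05 it marked 0, 1 (Ccl22) and 0, against 0.92%, 14.0% and 16.8%. The intervals were wide: in bleomycin KO against bleomycin WT the standard errors of the 10 log2 fold changes lay between 0.38 and 1.04, and none of the 10 intervals lay wholly within a 2-fold change in either direction. No marker had groups that did not overlap, against 0.905% of genes wholly higher and 0.594% wholly lower in bleomycin KO than in bleomycin WT, 4.93% and 0.929% in bleomycin WT against saline WT, and 8.17% and 1.04% in bleomycin KO against saline WT.

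**Figure D1:**
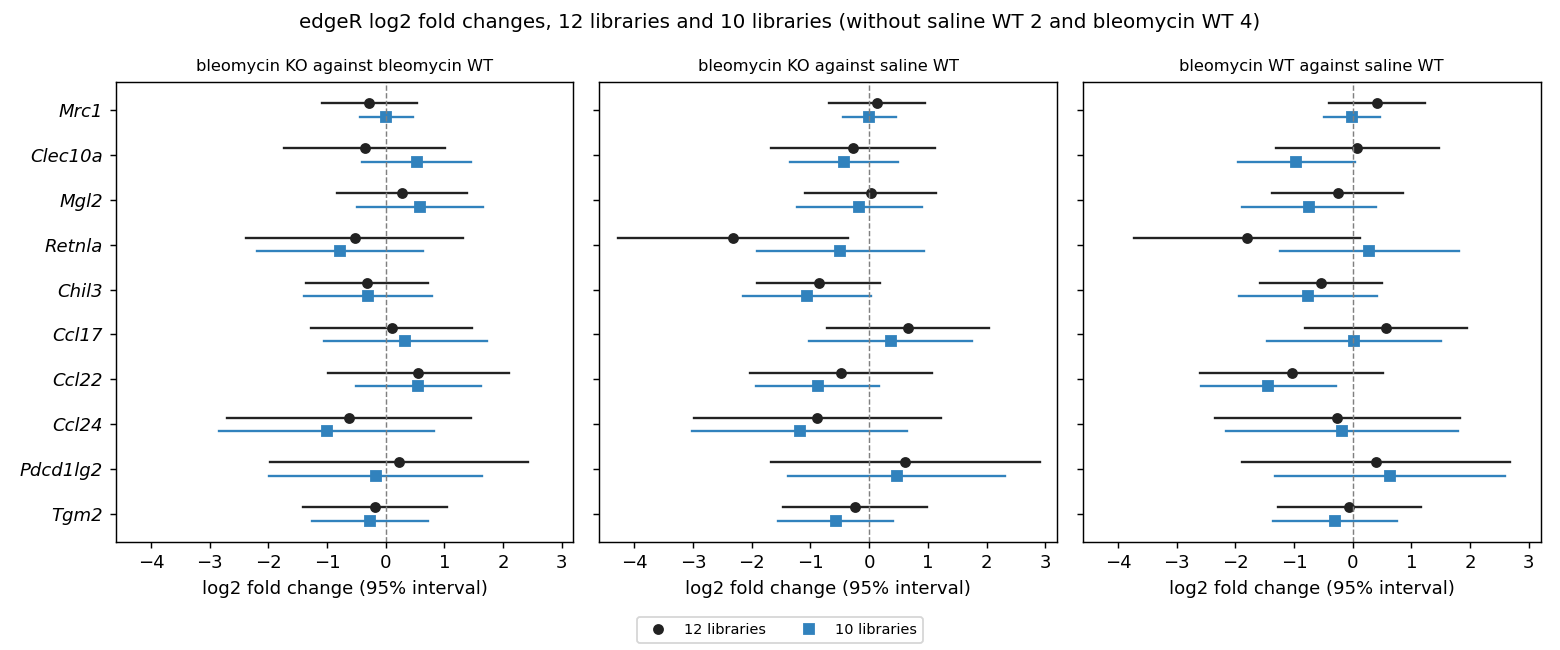
Log2 fold changes of the 10 markers from edgeR (x axis, points) with 95% intervals (lines) for bleomycin KO against bleomycin WT, bleomycin KO against saline WT and bleomycin WT against saline WT; black circles are the fit of 12 libraries and blue squares the fit of 10. In the first panel all 10 intervals from both fits cross 0, and the widest shift between the fits is that of Retnla in the comparisons with saline WT.

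The libraries differ in depth and character. Total counts were 8514384 to 16842991 in bleomycin KO, 9600870 to 18051113 in bleomycin WT and 60598 to 10168525 in saline WT. The shallow library is saline WT 2, where counts fell on 4830 genes and 3 counts are worth 32.4 CPM (counts divided by library size, scaled here by TMM), against 0.185 to 0.730 CPM in the other 11. Bleomycin WT 4 had a TMM factor of 0.579, the lowest of the 12, and a highest Spearman correlation with any other library of 0.730, across genes. That correlation was lower still for saline WT 1, at 0.658, and for saline WT 2, at 0.498. Results that rest on saline WT 2 or bleomycin WT 4 are therefore given also from a fit without both (10 libraries, 18812 genes tested). Saline WT 1 stays in that fit. Values with only saline WT 1 left out of the 12 libraries are given for Ccl22, and ranges over single libraries left out are given at the end. The macrophage label was checked against 10 macrophage markers, led by Lyz2 and C1qb. All 10 were detected in 11 libraries and 9 in saline WT 2, with summed levels of 47466 to 68188 CPM in bleomycin KO, 28677 to 50866 CPM in bleomycin WT and 14290 to 33937 CPM in saline WT. Lyz2 made up most of these sums, at 34559 to 55533 CPM in bleomycin KO, 14487 to 39157 CPM in bleomycin WT and 9318 to 28124 CPM in saline WT. In saline WT 3 the macrophage marker sum was 33937 CPM and that of the neutrophil markers read below was 28944 CPM. Cx3cr1 itself stood at 86.2 to 121 CPM in bleomycin KO, 7.46 to 113 CPM in bleomycin WT and 98.1 to 940 CPM in saline WT, with the lowest value in bleomycin WT 4 and the highest in saline WT 2. Monocyte markers, led by Nr4a1 and Ccr2, summed to 1705 to 2565 CPM in bleomycin KO, 1377 to 2577 CPM in bleomycin WT and 1005 to 5488 CPM in saline WT. Of the 8, Ccr2 was higher and 7 were lower in either bleomycin group than in saline WT. The median log2 fold changes were -1.95 for bleomycin WT and -1.76 for bleomycin KO. In edgeR on 12 libraries 0 passed, with 7 and 5 at an unadjusted p under 0.05 (14.7% and 9.03% of all genes). DESeq2 called Adgre4, Plac8 and Treml4 in both comparisons and Ace for bleomycin KO (3.31% and 3.14% of all genes). Lung epithelium markers, led by Sftpc and Scgb1a1, summed to 127 to 576 CPM in bleomycin KO, 135 to 835 CPM in bleomycin WT and 1451 to 2361 CPM in saline WT. Endothelium markers, led by Calcrl and Pecam1, summed to 79.0 to 154 CPM in bleomycin KO, 87.5 to 710 CPM in bleomycin WT and 256 to 455 CPM in saline WT. The 710 CPM is that of bleomycin WT 4, where Calcrl alone had 477 CPM. In bulk RNA, fewer cells of a type and less RNA per cell cannot be told apart.

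Il4ra counts did not set the libraries labelled KO apart. Il4ra had 473, 277, 235 and 343 CPM in bleomycin KO, 351, 626, 302 and 138 CPM in bleomycin WT, and 111, 32.4, 262 and 302 CPM in saline WT. The log2 fold change of bleomycin KO against bleomycin WT was -0.09 (95% interval -1.33 to 1.15). Counts over the whole gene include exons outside any deleted part, so this level does not check the label, and KO below means the libraries labelled KO.

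Promoters are shown for 3 markers that the values below turn on. Retnla has the largest fitted changes against saline WT in 12 libraries, which rest on saline WT 2 and are not the largest in 10 libraries, and Ccl17 and Ccl22 are neighbouring genes whose count ratio did not overlap between treatments in the deeper libraries. The sequences are from RefSeq (GRCm38.p6), which gave a promoter for 7 of the 10 markers. Each runs from 250 bases before to 50 bases after the transcript start, all on the plus strand: Retnla at chr16:48842359-48842658, Ccl17 at chr8:94810203-94810502 and Ccl22 at chr8:94745434-94745733. Capitals mark matches to TTCNNNNGAA, the spacing that STAT6 is known to favour, and to TTCNNNGAA, the spacing favoured by other STAT proteins. Both motifs read the same on either strand, so 1 search covers both, and no matches overlapped.
Retnla: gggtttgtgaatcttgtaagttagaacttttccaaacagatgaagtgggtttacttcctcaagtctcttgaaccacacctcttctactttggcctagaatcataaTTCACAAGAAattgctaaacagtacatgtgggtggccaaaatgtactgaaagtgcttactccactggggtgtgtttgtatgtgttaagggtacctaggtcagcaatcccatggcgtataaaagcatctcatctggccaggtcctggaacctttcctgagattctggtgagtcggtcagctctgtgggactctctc
Ccl17: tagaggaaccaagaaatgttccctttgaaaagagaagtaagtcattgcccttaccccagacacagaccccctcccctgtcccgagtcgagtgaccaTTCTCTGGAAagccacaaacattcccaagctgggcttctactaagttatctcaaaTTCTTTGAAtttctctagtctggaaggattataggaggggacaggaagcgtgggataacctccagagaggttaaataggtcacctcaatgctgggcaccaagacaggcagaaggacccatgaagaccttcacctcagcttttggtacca
Ccl22: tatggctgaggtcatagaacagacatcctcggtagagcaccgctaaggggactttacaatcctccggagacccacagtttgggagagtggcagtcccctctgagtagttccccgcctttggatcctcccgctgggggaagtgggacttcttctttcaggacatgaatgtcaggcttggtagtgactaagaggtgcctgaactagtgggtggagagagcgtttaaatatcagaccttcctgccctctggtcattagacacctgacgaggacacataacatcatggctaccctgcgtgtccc

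TTCNNNNGAA was found in Retnla, Ccl17 and Pdcd1lg2 (TTCCTCAGAA in Pdcd1lg2), and TTCNNNGAA in Ccl17 and Chil3 (TTCTTAGAA in Chil3). Mrc1, Ccl22 and Mgl2 held neither within this window. Of 32851 mouse promoters of the same length, 6.95% hold TTCNNNNGAA and 8.30% hold TTCNNNGAA. A match is a run of letters and not a bound site, and binding was not measured in these data.

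All 10 markers are annotated as protein-coding, and they spanned a wide range of levels. Per kilobase of exonic length, and taking the median over 12 libraries, Chil3 stood highest at 894 CPM per kb. Ccl17 followed at 363 and Mgl2 at 182 CPM per kb, then Retnla at 110.5, Tgm2 at 107 and Mrc1 at 101. Ccl22 was at 44.8, Clec10a at 11.5, Ccl24 at 10.7 and Pdcd1lg2 at 5.11 CPM per kb. Neighbours in this order were often not separated by library: Retnla was above Tgm2 in 7 of 12 libraries, Tgm2 above Mrc1 in 7, and Clec10a above Ccl24 in 6. Chil3 was above Ccl17, and Mrc1 above Ccl22, in 11 of 12. The markers also differed in how far they varied between libraries. Over the 10 libraries that leave out saline WT 2 and bleomycin WT 4, the highest Mrc1 value was 1.62 times the lowest, the narrowest range of the 10 genes. The ratio was 4.35 for Clec10a, 4.56 for Tgm2 and 5.97 for Ccl17, between 7.84 and 9.42 for Ccl22, Mgl2, Retnla, Ccl24 and Chil3, and 52.2 for Pdcd1lg2, the least abundant. This last ratio rests on 1 count in saline WT 1, at 0.243 CPM and under the 0.730 CPM that 3 counts are worth there; the other 9 libraries lay between 4.15 and 12.7 CPM.

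**Figure D2:**
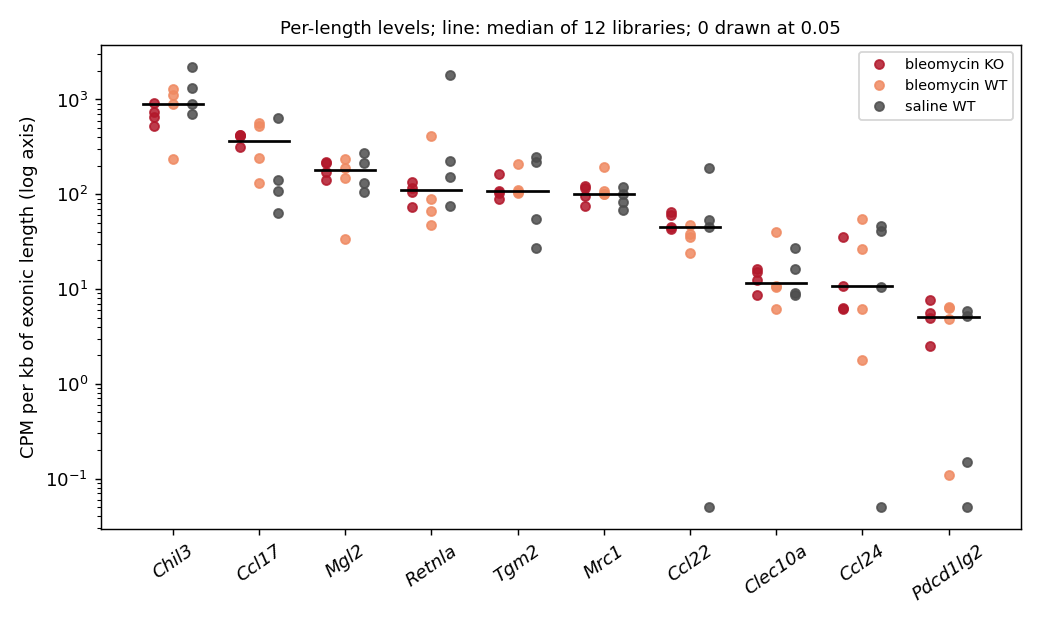
CPM per kilobase of exonic length (y axis, log scale) of each marker in 12 libraries, ordered by median (line) and coloured by group; values of 0 are drawn at 0.05. Medians run from 894 for Chil3 to 5.11 for Pdcd1lg2, and within most genes the points of the 3 groups intermingle.

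Mrc1 (ENSMUSG00000026712), on chromosome 2 from 14229392 to 14332057 on the plus strand (GRCm38), encodes the mannose receptor CD206, an endocytic lectin of macrophages that takes up mannose-bearing glycoproteins. It had 511, 660, 407 and 629 CPM in bleomycin KO, 534, 537, 577 and 1031 CPM in bleomycin WT, and 546, 368, 450 and 639 CPM in saline WT. Apart from the high value in bleomycin WT 4, the ranges of the 3 groups overlapped throughout. The log2 fold change of bleomycin KO against bleomycin WT was -0.28 (95% interval -1.09 to 0.53) in 12 libraries and 0.015 (-0.44 to 0.47) in 10 libraries. In the fit of 10 libraries bleomycin WT against saline WT gave -0.013 (-0.50 to 0.47) and bleomycin KO against saline WT gave 0.0021 (-0.45 to 0.45). Mrc1 was thus the most tightly measured marker, and the 3 intervals of that fit together ran from 0.709-fold to 1.39-fold.

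Clec10a (ENSMUSG00000000318) and Mgl2 (ENSMUSG00000040950) encode the galactose-type lectins CD301a and CD301b, which bind terminal galactose and N-acetylgalactosamine and sit 18646 bases apart on chromosome 11, from 70156197 to 70170834 and from 70130329 to 70137550 on the plus strand. They are close relatives: 9.02% of the 50-base windows of Clec10a transcripts and 13.1% of those of Mgl2 also occur in transcripts of other genes, so reads from those stretches may be shared. Clec10a had 21.6, 37.6, 30.8 and 40.7 CPM in bleomycin KO, 26.3, 26.8, 15.5 and 99.2 CPM in bleomycin WT, and 67.4, 21.6, 22.7 and 40.7 CPM in saline WT. The value in bleomycin WT 4 stood far above the other 3 of its group. In the same library 10 interstitial macrophage markers, led by Maf and Pf4, summed to 4273 CPM, of which Maf alone made 3353 CPM, against 683 to 1524 CPM for the sum in the other bleomycin WT libraries. The 9 markers other than Maf summed to 920.2 CPM there, against 652 to 1482 CPM in the other bleomycin WT libraries. Of these, Cd163, Cbr2 and Ccl8 were each at their lowest of the group in bleomycin WT 4. Lyve1, Folr2, Timd4 and Tmem119 were each at their highest there, and Gas6 and Pf4 lay between. The direction of Clec10a turns on bleomycin WT 4: bleomycin KO against bleomycin WT gave a log2 fold change of -0.36 (-1.73 to 1.01) with it and 0.50 without it, and bleomycin WT against saline WT gave 0.08 (-1.31 to 1.47) with it and -0.70 without it.

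Mgl2 had 244, 377, 371 and 298 CPM in bleomycin KO, 332, 259, 58.8 and 412 CPM in bleomycin WT, and 477, 184, 228 and 366 CPM in saline WT. The 4 bleomycin KO values sat close together, while bleomycin WT 3 was the lowest of the 12 libraries. Bleomycin KO against bleomycin WT gave a log2 fold change of 0.28 (-0.83 to 1.39), and that of bleomycin KO against saline WT was 0.03 (-1.09 to 1.14).

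Retnla (ENSMUSG00000061100), on chromosome 16 from 48842551 to 48844461 on the plus strand, encodes RELM-alpha, a small secreted protein rich in cysteine that is among the classic IL-4 targets of mouse macrophages. Retnla had 43.9, 69.7, 81.2 and 62.4 CPM in bleomycin KO, 248, 53.6, 28.3 and 40.0 CPM in bleomycin WT, and 90.5, 1081, 45.2 and 133 CPM in saline WT. Bleomycin WT 1 and saline WT 2 stood far above the rest of their groups, and all other values lay between 28.3 and 133 CPM. The saline WT 2 value rests on 100 counts in a library of 60598.

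In edgeR on 12 libraries Retnla was the 1 marker with an unadjusted p under 0.05: bleomycin KO against saline WT gave a log2 fold change of -2.33 (-4.28 to -0.37; edgeR p 0.0228, Benjamini-Hochberg adjusted p 0.470). With no filter on low counts the value was -2.25 and passed (edgeR adjusted p 0.0418). Without saline WT 2 it was -0.38 (edgeR adjusted p 0.908), and in 10 libraries -0.49 (-1.91 to 0.93; edgeR adjusted p 0.730). Bleomycin WT against saline WT moved in the same way, at -1.80 (-3.73 to 0.12) with saline WT 2 and 0.14 without it. Bleomycin KO against bleomycin WT was -0.53 (-2.37 to 1.32) with all libraries and 0.66 without bleomycin WT 1.

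Chil3 (ENSMUSG00000040809), on chromosome 3 from 106147554 to 106167564 on the minus strand, encodes Ym1, a secreted chitinase-like protein of rodents that lacks chitinase activity. Chil3 had 802, 1143, 996 and 1409 CPM in bleomycin KO, 1726, 363, 1966 and 1380 CPM in bleomycin WT, and 1371, 1081, 3419 and 2014 CPM in saline WT. The 2 highest values of the 12 were in saline WT 3 and 4 and the lowest in bleomycin WT 2. The log2 fold change was -0.32 (-1.36 to 0.72) for bleomycin KO against bleomycin WT, -0.54 (-1.58 to 0.50) for bleomycin WT against saline WT and -0.86 (-1.91 to 0.19) for bleomycin KO against saline WT. All 3 were below 0 in every setting tried. Of the 50-base windows of Chil3 transcripts, 26.9% also occur in transcripts of other genes, mainly the paralog Chil4 and Gm6522, and Chil4 itself had 40 counts in bleomycin KO, 36 in bleomycin WT and 19 in saline WT.

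Alveolar macrophages and neutrophils are known to make Chil3, and the summed levels of their markers were also highest in saline WT 3 and 4. The summed level of 10 alveolar macrophage markers, led by Plet1 and Car4, was 382 to 521 CPM in bleomycin KO, 196 to 567 CPM in bleomycin WT and 497 to 1589 CPM in saline WT, and all 10 had lower fitted levels in either bleomycin group than in saline WT. Of these 10, 0 passed in edgeR on 12 libraries. An unadjusted edgeR p under 0.05 was found for 6 in bleomycin WT against saline WT and 5 in bleomycin KO against saline WT (14.7% and 9.03% of all genes). DESeq2 called Cidec, Ear1, Fabp1, Krt19 and Krt79 lower in both comparisons (3.31% and 3.14% of all genes were called, in either direction). The highest sums were those of saline WT 3 and 4, at 1589 and 1210 CPM. The summed level of 10 neutrophil markers, led by S100a9 and S100a8, was 1144 to 1827 CPM in bleomycin KO, 557 to 1547 CPM in bleomycin WT and 2551 to 28944 CPM in saline WT, with 28944 and 17481 CPM in saline WT 3 and 4. Not every marker peaked there, as Krt79, Camp and Ltf were highest in the shallow saline WT 2. Chil3 was also high in bleomycin WT 3, at 1966 CPM against 2014 CPM in saline WT 4. The sums in bleomycin WT 3 were 409 CPM (alveolar macrophage markers) and 1324 CPM (neutrophil markers). The part of either cell type in the Chil3 level was not tested.

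Ccl17 (ENSMUSG00000031780) and Ccl22 (ENSMUSG00000031779) encode the chemokines TARC and MDC, both ligands of the receptor Ccr4 on T cells. They lie 58753 bases apart on chromosome 8, from 94810453 to 94812036 and from 94745590 to 94751699 on the plus strand. Ccl17 had 162, 211, 215 and 215 CPM in bleomycin KO, 288, 124, 68.1 and 270.1 CPM in bleomycin WT, and 329, 32.4, 55.2 and 72.7 CPM in saline WT. The 4 bleomycin KO libraries lay between 162 and 215 CPM, while the other groups spread widely. In saline WT replicate 1 was the highest of the 12 libraries while the other 3 were at 72.7 CPM or less, and replicate 2 held just 3 counts. The log2 fold change was 0.10 (-1.27 to 1.47) for bleomycin KO against bleomycin WT and 0.57 (-0.81 to 1.95) for bleomycin WT against saline WT. In 10 libraries these values were 0.34 (-1.05 to 1.73) and 0.028 (-1.45 to 1.51).

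Ccl22 had 99.4, 95.1, 145 and 135 CPM in bleomycin KO, 84.1, 106, 53.5 and 78.4 CPM in bleomycin WT, and 419.5, 0, 99.0 and 119 CPM in saline WT. Saline WT 1 was the highest of the 12 libraries, and the 0 of saline WT 2 allows a level of up to 32.4 CPM. Bleomycin KO against bleomycin WT gave 0.56 (-0.99 to 2.11). Bleomycin WT against saline WT gave -1.04 (-2.60 to 0.52; edgeR adjusted p 0.525) in 12 libraries and -1.44 (-2.59 to -0.28; edgeR p 0.0195, adjusted p 0.269) in 10 libraries. With only saline WT 1 left out of the 12 libraries the value was 0.028 for bleomycin WT and 0.59 for bleomycin KO, each against saline WT.

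Dendritic cells also make both chemokines. The summed level of 10 dendritic cell markers, led by Ccr7 and Cd209a, was 479 to 600 CPM in bleomycin KO, 333 to 584 CPM in bleomycin WT and 54.0 to 959 CPM in saline WT, with the 959 CPM in saline WT 1, of which Ccr7 made 546 CPM and where Ccl17 and Ccl22 were also at their highest. The lowest bleomycin sum, 333 CPM, was in bleomycin WT 3, which had the lowest Ccl17, Ccl22, Clec10a and Mgl2 of the bleomycin libraries. The 10 markers were all detected in 10 libraries, 1 was at 0 in bleomycin WT 4 and 8 in saline WT 2. Among saline WT 1, 3 and 4, saline WT 1 had the highest Flt3, Xcr1, Ccr7 and Fscn1. It also had the lowest Zbtb46, Cd209a, Dpp4 and Itgae, and Clec9a and Kmo lay between. Saline WT 4, with the next highest sum at 624 CPM, had 72.7 CPM of Ccl17, while bleomycin WT 4, at 463 CPM, had 270 CPM. The part of dendritic cells in the chemokine and lectin levels was not tested.

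In counts not scaled by gene length, Ccl17 outnumbered Ccl22 in every bleomycin library but not in the deeper saline libraries. The ratio of Ccl17 to Ccl22 counts was 1.63, 2.22, 1.49 and 1.59 in bleomycin KO, 3.42, 1.17, 1.27 and 3.45 in bleomycin WT, and 0.784, 0.557 and 0.609 in saline WT 1, 3 and 4. Saline WT 2 held 3 Ccl17 counts and 0 of Ccl22. The exonic lengths are 514 bases for Ccl17 and 2216 for Ccl22, so equal counts are not equal levels. Per base, Ccl17 was above Ccl22 in saline WT 1, 3 and 4 as well, at 3.38, 2.40 and 2.63 times. In the bleomycin libraries it was 5.04 to 14.9 times Ccl22 per base. Expressed as the Ccl17 share of the summed counts, the 4 bleomycin KO libraries ran from 59.8% to 68.9% and the 4 bleomycin WT libraries from 53.9% to 77.5%. Saline WT 1 had 44.0% (exact 95% binomial interval 42.2% to 45.7%), saline WT 3 had 35.8% and saline WT 4 had 37.9%. The intervals cover counting error only. By counts, Ccl17 exceeded Ccl22 in all 8 bleomycin libraries. Ccl22 exceeded Ccl17 by counts in the 3 saline libraries with at least 1000000 counts, including saline WT 1, where both genes were at their highest. Of the 45 pairs of markers this was the 1 whose ratio did not overlap between these 8 and 3 libraries, and since it was picked from all pairs after their values were seen it is given with no test.

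**Figure D3:**
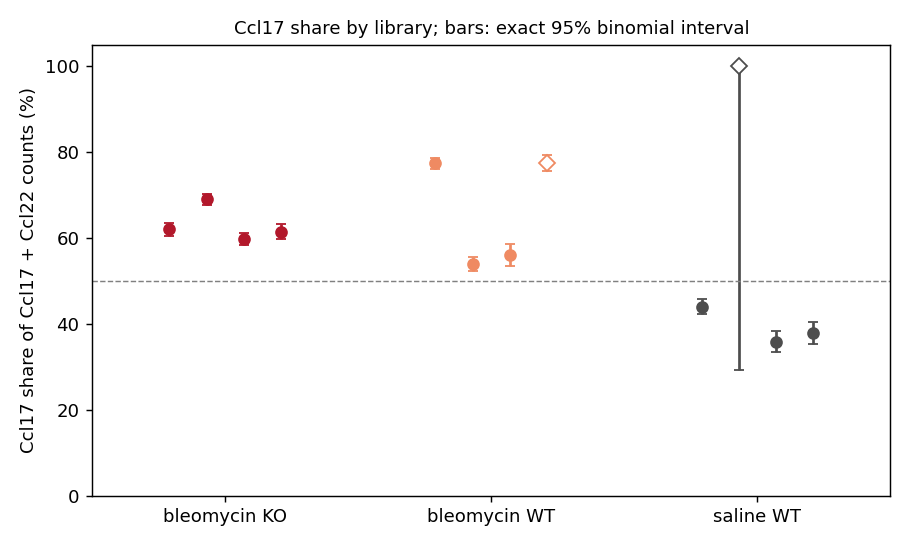
Ccl17 share of the Ccl17 and Ccl22 counts in each library (y axis, %), with exact 95% binomial intervals that cover counting error only. Open diamonds are bleomycin WT 4 and saline WT 2. The dashed line marks equal counts, which are not equal levels, as the exonic lengths are 514 bases (Ccl17) and 2216 bases (Ccl22). The 8 bleomycin libraries lie between 53.9% and 77.5%, and saline WT 1, 3 and 4 between 35.8% and 44.0%; the interval of saline WT 2, with 3 counts, runs from 29.2% to 100%.

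Ccl24 (ENSMUSG00000004814), on chromosome 5 from 135569937 to 135573049 on the minus strand, encodes eotaxin-2, which draws eosinophils through the receptor Ccr3. Ccl24 had 7.91, 14.0, 8.12 and 45.5 CPM in bleomycin KO, 71.6, 7.91, 34.2 and 2.31 CPM in bleomycin WT, and 60.6, 0, 13.7 and 52.9 CPM in saline WT. Every group held both high and low libraries. In edgeR the log2 fold change of bleomycin KO against bleomycin WT was -0.62 (-2.70 to 1.46) and became 0.33 without bleomycin WT 1.

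Pdcd1lg2 (ENSMUSG00000016498), on chromosome 19 from 29410919 to 29471161 on the plus strand, encodes PD-L2, a ligand of PD-1 (Pdcd1), an inhibitory receptor of T cells, that also binds RGMb. It had 9.23, 4.15, 12.7 and 8.20 CPM in bleomycin KO, 10.5, 10.6, 7.87 and 0.178 CPM in bleomycin WT, and 0.243, 0, 8.61 and 9.56 CPM in saline WT. The low values of bleomycin WT 4 and saline WT 1 rest on 1 count each, and the other libraries with counts lay between 4.15 and 12.7 CPM in all 3 groups. For Pdcd1lg2 the log2 fold change of bleomycin KO against bleomycin WT was 0.23 (-1.97 to 2.42), the widest interval of the 10 markers.

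Tgm2 (ENSMUSG00000037820), on chromosome 2 from 158116402 to 158146436 on the minus strand, encodes tissue transglutaminase, which cross-links proteins and is an IL-4 target in both mouse and human macrophages. Tgm2 had 593, 372, 394 and 323 CPM in bleomycin KO, 369, 759, 402 and 377 CPM in bleomycin WT, and 196, 97.3, 894 and 778 CPM in saline WT. Saline WT held both the lowest and the highest values, with the 2 lowest in saline WT 1 and 2, whose highest Spearman correlations with any other library were 0.658 and 0.498. Tgm2 gave log2 fold changes of -0.18 (-1.40 to 1.04) for bleomycin KO against bleomycin WT and -0.06 (-1.28 to 1.16) for bleomycin WT against saline WT. Of its 50-base windows, 18.7% also occur in transcripts of other genes, mainly Gm20412 and Rprd1b.

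**Figure D4:**
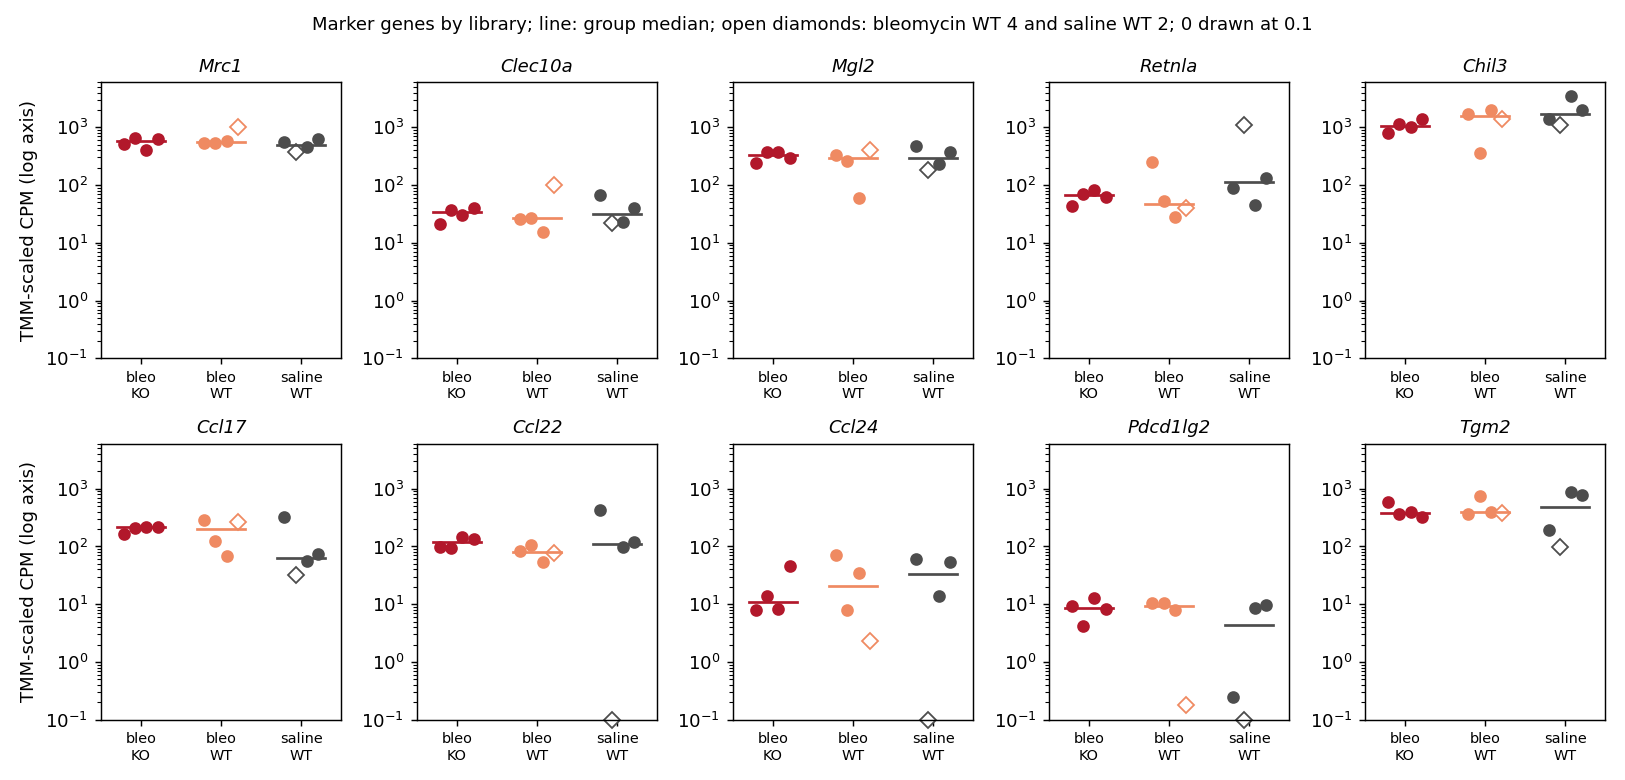
TMM-scaled CPM (y axis, log scale) of each marker in every library, in bleomycin KO, bleomycin WT and saline WT from left to right; lines are group medians, open diamonds are bleomycin WT 4 and saline WT 2, and 0 is drawn at 0.1. Mrc1 is nearly level across the groups (407 to 660 CPM in bleomycin KO, 534 to 1031 CPM in bleomycin WT, 368 to 639 CPM in saline WT), and in all 10 panels the groups overlap.

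Other genes known to respond to IL-4 or IL-13 were read beside the markers. Of 22 such genes, 21 were tested. Their split was 11 higher and 10 lower in bleomycin KO than in bleomycin WT (median log2 fold change 0.02, against -0.01 over all genes). In either bleomycin group 18 were higher and 3 lower than in saline WT. The medians were 1.09 for bleomycin WT and 1.10 for bleomycin KO, against 0.08 and 0.04 over all genes. In saline WT 2, 12 of the 22 were at 0. In 10 libraries, with 22 tested, the split was 9 higher and 13 lower in bleomycin KO than in bleomycin WT (median -0.12), 19 higher and 3 lower in bleomycin WT than in saline WT (median 0.74), and 16 higher and 6 lower in bleomycin KO than in saline WT (median 0.68). In edgeR on 12 libraries 0 passed in any comparison, with 0, 8 and 8 at an unadjusted p under 0.05 for bleomycin KO against bleomycin WT, bleomycin WT against saline WT and bleomycin KO against saline WT. The shares of all genes at that unadjusted p were 3.88%, 14.7% and 9.03%. DESeq2 called 0, 2 (Arg1 and Fn1) and 2 (Arg1 and Il1rn), and limma-voom called 0, 2 and 2 (Arg1 and Il1rn both times). Of all genes, DESeq2 called 0.00253%, 3.31% and 3.14%, and limma-voom 0.0%, 1.91% and 1.39%. The summed level of the 22 was 5802 to 8874 CPM in bleomycin KO, 5866 to 11741 CPM in bleomycin WT and 1103 to 4002 CPM in saline WT, whereas the 10 markers summed to 2495 to 3165 CPM in bleomycin KO, 2246 to 3690 CPM in bleomycin WT and 2865 to 5235 CPM in saline WT.

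Arg1, which encodes arginase 1 and is the other classic IL-4 marker of mouse macrophages, had 95.7, 163, 93.8 and 198 CPM in bleomycin KO, 295, 161, 722 and 345 CPM in bleomycin WT, and 20.4, 0, 0.513 and 10.6 CPM in saline WT. Both bleomycin groups lay wholly above saline WT, a pattern that 0 of the 10 markers had. Of all genes tested, 4.93% lay wholly higher in bleomycin WT and 8.17% in bleomycin KO, each against saline WT. A count of 0 of 10 is close to those shares. The mean of Arg1 was 137 CPM in bleomycin KO and 380 CPM in bleomycin WT, with overlapping libraries. Neither edgeR, DESeq2 nor limma-voom called Arg1 between the bleomycin groups. The 3 most abundant of these other genes were Fn1, which encodes fibronectin, Clec7a, the beta-glucan receptor dectin-1, and Il1rn, the secreted IL-1 receptor antagonist. Il1rn had 1420, 1244, 1368 and 1117 CPM in bleomycin KO, 1044, 770, 1131 and 1174 CPM in bleomycin WT, and 427, 130, 496 and 428 CPM in saline WT, so that both bleomycin groups lay wholly above saline WT. Il1rn rose in the fit of 10 libraries, by a log2 fold change of 1.10 in bleomycin WT (edgeR adjusted p 0.0424) and 1.5 in bleomycin KO (edgeR adjusted p 0.0114), each against saline WT; in 12 libraries the values were 1.46 (edgeR adjusted p 0.219) and 1.78 (edgeR adjusted p 0.207). Clec7a gave 0.19 (-0.82 to 1.20) and Fn1 gave -0.60 (-2.16 to 0.95) for bleomycin KO against bleomycin WT.

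The cytokines themselves were at the edge of detection. Il4 reached at most 1.44 CPM and Il13 at most 0.464 CPM in any library, and Il4 had 21 counts in bleomycin KO, 20 in bleomycin WT and 18 in saline WT. There were 6 Il13 counts in bleomycin KO, 3 in bleomycin WT and 0 in saline WT. Stat6 had a log2 fold change of 0.32 (-0.83 to 1.46) for bleomycin KO against bleomycin WT. Of 12 genes for the cytokines, their receptors and signalling, 9 were tested in edgeR, and 0 passed in edgeR, DESeq2 or limma-voom, also at an unadjusted p under 0.05. Of all genes, edgeR had 3.88% at that unadjusted p for bleomycin KO against bleomycin WT. The shares were 14.7% for bleomycin WT and 9.03% for bleomycin KO, each against saline WT.

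Partners of the markers' products, most of which are known from other cells, were read in the same libraries. Ccr4, the receptor for Ccl17 and Ccl22, was at 4.02 to 13.6 CPM in bleomycin KO, 1.95 to 11.3 CPM in bleomycin WT and 0 to 12.2 CPM in saline WT. Ccr3, the receptor for Ccl24, was at 0.791 to 10.9 CPM in bleomycin KO, 0.533 to 7.79 CPM in bleomycin WT and 0 to 5.74 CPM in saline WT. Cd274, which encodes the related ligand PD-L1, was at 151 to 216 CPM in bleomycin KO, 166 to 288 CPM in bleomycin WT and 54.0 to 225 CPM in saline WT, and Rgmb was at 18.7 CPM or less in every library.

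Pdcd1 had the largest fold changes of these 5 partners against saline WT, but not between the bleomycin groups. It had 34.5, 49.8, 42.5 and 41.6 CPM in bleomycin KO, 42.2, 23.2, 38.2 and 74.3 CPM in bleomycin WT, and 0.243, 0, 1.44 and 16.1 CPM in saline WT. Each of the 8 bleomycin libraries exceeded saline WT 1, 3 and 4, and up to 32.4 CPM could go unseen in saline WT 2. The log2 fold change was -0.08 (-1.86 to 1.70) for bleomycin KO against bleomycin WT, 3.0 (0.98 to 5.03; edgeR adjusted p 0.227) for bleomycin WT against saline WT and 2.92 (0.91 to 4.94; edgeR adjusted p 0.358) for bleomycin KO against saline WT. Pdcd1 was the 1 of the 5 partners that DESeq2 called in bleomycin WT and bleomycin KO against saline WT (3.31% and 3.14% of all genes). Both edgeR (0.024% and 0.018% of all genes) and limma-voom (1.91% and 1.39%) called 0, with 1 at an unadjusted p under 0.05. In edgeR 14.7% and 9.03% of all genes were at that unadjusted p. T and NK cell markers, led by Nkg7 and Gzma, summed to 203 to 471 CPM in bleomycin KO, 208 to 735 CPM in bleomycin WT and 10.8 to 341 CPM in saline WT, and the part of T cells in the Pdcd1 level was not tested.

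The genes whose levels ran most closely with each marker were found among 9342 genes of at least 10 CPM, by Pearson's r of log2 CPM (with 0.5 CPM added) across the 11 libraries with at least 1000000 counts. These are descriptions over libraries that differ in treatment and depth. Each pair is given with r and Spearman's rho, and in several pairs rho was well under r. Ccl17 ran with Hmgcs1 (r 0.91, rho 0.94) and Cd40 (r 0.85, rho 0.70), and Ccl22 with Sema4b (r 0.92, rho 0.77) and Tstd2 (r 0.90, rho 0.68). Mgl2 ran with the class II antigen presentation genes H2-Aa (r 0.88, rho 0.66) and H2-DMa (r 0.86, rho 0.75). Clec10a ran with Csrnp2 (r and rho both 0.95) and Bmyc (r 0.93, rho 0.82), and Mrc1 with Dhdh (r 0.95, rho 0.80) and Atad5 (r 0.92, rho 0.67). Tgm2 ran with Pbxip1 (r 0.96, rho 0.85) and with Gm20412 (r 0.96, rho 0.94), which shares sequence with it. Chil3 ran with Mpc2 (r 0.94, rho 0.89) and Gmfg-ps (r 0.89, rho 0.69), and Ccl24 with Rpa2 (r 0.87, rho 0.81) and Nr2c2ap (r 0.85, rho 0.78). Retnla had the lowest r with its partners, the dendritic cell marker Cd209a (r 0.69, rho 0.82) and Chordc1 (r 0.68, rho 0.77), and Pdcd1lg2 was under 10 CPM and not compared.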

How the data were processed

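Total RNA (2 ng per library) from lung Cx3cr1+ macrophages was made into cDNA with the SMART-Seq v4 kit and sequenced as single-end 50-base reads, per the labels' protocols; the kit does not mark strand. The deposited values are raw counts per Ensembl gene, made by the authors, with a deposited gene table of exonic lengths. GSNAP, Partek, limma and the builds GRCm38 and mm10 are named in the submitters' processing notes, without settings. The counting of reads that match several genes is not described in these sources.

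From these counts TMM-scaled CPM, and CPM per kilobase of the deposited exonic length, were computed with edgeR 4.0.16 in R 4.3.3. The main test was edgeR's quasi-likelihood test (filterByExpr, robust) on all 12 libraries with 1 term, group, adjusted by Benjamini-Hochberg over 16679 genes. The 95% intervals use the moderated degrees of freedom of that fit. The procedure was also run on simulated counts, with changes placed only in genes of at least 10 CPM, a level above that of Pdcd1lg2. The outcome is not given here, so that run is no check on the count of markers called. Alternatives were other scalings, no filter, a replicate block, DESeq2 1.42.0, limma-voom with quality weights (limma 3.58.1), each library left out, and 10 libraries. No 2 libraries agreed within sampling noise (chi-square of at least 18.6 per degree of freedom for each pair), so none was counted as a repeat. Promoters were matched by symbol, gene positions come from GENCODE vM21 (GRCm38), and annotated ends differ from the deposited exons for Retnla, Clec10a and Pdcd1lg2. The list of other IL-4 and IL-13 induced genes named Rnase2a under an older symbol too, which left 22 genes. The 10 markers, the gene lists and the tests were chosen with earlier results of these data known, so the direction of a list is not independent evidence. Named genes were all 10 markers, any listed gene past the threshold, Il4ra, Il4, Il13, Stat6, the markers' partners, the 3 most abundant other IL-4 and IL-13 induced genes, the 2 most abundant of each cell list and the 2 genes most like each marker. Arg1, Cx3cr1, Chil4, Cd163, Cbr2, Ccl8, Lyve1, Folr2, Timd4, Tmem119, Gas6 and genes called by another tool or fit alone were named after their values were seen. The same holds for Flt3, Xcr1, Fscn1, Zbtb46, Dpp4, Itgae, Clec9a and Kmo.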

Additional observations from a re-analysis of the deposited data

Results flagged for a closer look

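In 8 of the 30 groups of 4 libraries (10 markers in 3 groups), 1 library stood far from the other 3 by Dixon's test at its 95% critical value. Chance alone exceeds that value in about 1 group in 20 where values are normally distributed. Here the test was run on CPM without logs, and all flags but that of Ccl17 in bleomycin KO were high values. Groups of different markers also share libraries, so an excess over 1 in 20 was not tested. Bleomycin KO 1 had the lowest Ccl17 of its group, 162 CPM against 211 CPM in the next library, and bleomycin KO 4 the highest Ccl24, 45.5 CPM against 14.0 CPM. Bleomycin WT 1 had the highest Retnla of its group, 248 CPM against 53.6 CPM, and bleomycin WT 2 the highest Tgm2, 759 CPM against 402 CPM. Bleomycin WT 4, the library with the lowest TMM factor, had the highest Mrc1 (1031 CPM against 577 CPM) and the highest Clec10a (99.2 CPM against 26.8 CPM) of its group. Saline WT 1 had the highest Ccl17 of its group, 329 CPM against 72.7 CPM, and the shallow saline WT 2 the highest Retnla, 1081 CPM against 133 CPM.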

How the results depend on the processing

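The count of markers called was 0 in all 3 comparisons under every setting run except 1: with no filter on low counts, 1 marker passed for bleomycin KO against saline WT, Retnla at a log2 fold change of -2.25 (edgeR adjusted p 0.0418). Over all alternatives for that value the log2 fold change ran from -2.86 to -0.38. The count of all genes called moved far more. For bleomycin WT against saline WT it was 4 in the main test, 1 with RLE scaling, 1 with total counts only, 780 with no filter, 588 in DESeq2, 319 in limma-voom with quality weights and 81 in 10 libraries. For bleomycin KO against saline WT it was 3, against 1 with RLE scaling, 1 with total counts only, 694 with no filter, 630 in DESeq2, 232 in limma-voom and 121 in 10 libraries. For bleomycin KO against bleomycin WT it was 0, against 243 with no filter and 1 in DESeq2. With single libraries left out the counts ran from 1 to 11 for bleomycin WT against saline WT (11 without bleomycin WT 4, 1 without saline WT 3) and from 0 to 18 for bleomycin KO against saline WT (18 without bleomycin WT 4). The cause of these shifts was not tested.

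Replicate numbers did not pair the libraries: same-numbered libraries' deviations from their group means correlated at -0.192 to 0.0583, and 0 of 12 libraries correlated best with its own number. With a replicate block, 2 genes passed for bleomycin WT against saline WT and 1 for bleomycin KO against saline WT, with 0 markers called. In that fit Clec10a was at -0.14, Ccl24 at 0.032 and Tgm2 at 0.12 for bleomycin WT against saline WT, each on the other side of 0 from the main value.

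Several log2 fold changes of single markers crossed 0. For bleomycin KO against bleomycin WT, Clec10a was 0.065 with total counts only, 0.55 in limma-voom and 0.53 in 10 libraries, Pdcd1lg2 was -0.035 in limma-voom and -0.16 in 10 libraries, and Mrc1 was 0.015 in 10 libraries. For bleomycin WT against saline WT, Clec10a was -0.19 with RLE scaling, -0.58 with total counts only, -0.20 in DESeq2, -0.68 in limma-voom and -0.96 in 10 libraries. Mrc1 was -0.10 with total counts only and -0.013 in 10 libraries, Ccl24 was 0.27 in limma-voom, and Retnla was 0.28 in 10 libraries. For bleomycin KO against saline WT, Mrc1 was -0.051 with RLE scaling, -0.11 with total counts only, -0.055 in DESeq2 and -0.034 in limma-voom. Mgl2 was -0.17 with RLE scaling, -0.0016 with TMMwsp scaling, -0.22 with total counts only, -0.17 in DESeq2 and -0.17 in 10 libraries, and Ccl22 was 0.18 in limma-voom. Relative to the main test, the median gene shifted by -0.18 with RLE scaling, -0.30 with total counts only and -0.22 in DESeq2 for bleomycin WT against saline WT, and by -0.16, -0.18 and -0.19 in the same settings for bleomycin KO against saline WT.

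With single libraries left out, the ranges that crossed 0 for bleomycin KO against bleomycin WT were -0.17 to 0.39 for Ccl17, -1.54 to 0.33 for Ccl24, -0.62 to 0.50 for Clec10a, -0.047 to 0.56 for Mgl2, -0.19 to 0.46 for Pdcd1lg2, -0.83 to 0.66 for Retnla and -0.41 to 0.15 for Tgm2. For bleomycin WT against saline WT they were -1.31 to 0.028 for Ccl22, -1.17 to 0.17 for Ccl24, -0.70 to 0.51 for Clec10a, -0.44 to 0.11 for Mgl2, -0.069 to 0.89 for Pdcd1lg2, -2.97 to 0.14 for Retnla and -0.36 to 0.51 for Tgm2. For bleomycin KO against saline WT they were -0.75 to 0.59 for Ccl22, -0.38 to 0.16 for Clec10a, -0.054 to 0.32 for Mgl2 and -0.49 to 0.33 for Tgm2. Chil3 kept its direction in all 3 comparisons under every setting run. Depth limits saline WT 2 most, where a marker under 32.4 CPM can go unseen.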
